A study of Drosophila melanogaster with 4 samples.

Results

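Germline cells of Drosophila melanogaster testis tumors that carried the transcript of a driver-dependent reporter were compared with germline cells of the same libraries that carried none. The tumors, called Nanos-Upd, were made by expressing Unpaired, the ligand of the JAK-STAT pathway, in the germline. The cells are those the authors labelled GSC-like, after the germline stem cells they resemble. The cells of each group were chosen by their measured H3-GFP count: a cell was reporter-positive with at least 1 UMI (unique molecular identifier, a counted transcript) of H3-GFP and reporter-negative with 0 UMIs. Of 7975 GSC-like cells in the 2 Nanos-Upd libraries, 1832 were reporter-positive and 6143 were reporter-negative, among 20618 cells in the whole series. Replicate 1 held 521 positive and 1886 negative cells, and replicate 2 held 1311 positive and 4257 negative cells.

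Nanos-Upd males carried y[1] w[1118] and a heat shock FLP insertion, P{hs70FLP}, with the driver GAL4::VP16-nanos.UTR over UAS-Upd and 1 copy of the reporter UAS-FRT-H3-GFP-FRT-H3-mKO. TrafficJam-Upd males, used here for background and for 1 comparison, carried w[1118], the driver traffic Jam-GAL4 over UAS-Upd and the same reporter, and no y allele or FLP insertion is listed for them. All groups therefore overexpressed Upd, and no library without Upd was analysed here. Each of the 4 libraries, 2 per tumor type, was made from the pooled testes of many males. The nanos driver acts in germline cells and the traffic jam driver in cyst cells. Ages are not given in the labels.

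In the fly testis, hub cells secrete Unpaired, which binds the receptor Domeless and activates the kinase Hopscotch and the transcription factor Stat92E in neighbouring germline stem cells and cyst stem cells. Excess Unpaired is known to fill the testis with cells resembling both stem cell types. In the GAL4/UAS system a driver turns on every transgene behind UAS sites, so that the reporter and the Upd transgene answer to the same protein. The reporter carries H3-GFP between FRT sites, where FLP recombinase can remove it and bring H3-mKO under UAS control. H3-mKO was not analysed here, so a cell without a UMI of H3-GFP may have lacked driver activity, may have lost the cassette or may have held transcripts that were not captured, and these cannot be told apart.

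The 4 libraries held 13190124 to 33499923 UMIs in 3241 to 9093 cells, with 2200 to 7499 UMIs in each cell. In all, 35 cell barcodes occurred in more than 1 library, and 2 of them belonged to GSC-like cells of both Nanos-Upd libraries. Of the early germline markers, nos, vas and bam were higher in GSC-like than in CySC-like cells, and piwi did not separate the classes. The translational repressor nos, expressed in early germline, had 176 and 207 CPM (UMIs of the gene relative to all UMIs, scaled to a fixed total) in GSC-like cells of Nanos-Upd replicates 1 and 2, against 15.3 and 32.2 CPM in their CySC-like cells, the class named after cyst stem cells. piwi had 336 and 375 CPM in the GSC-like cells and 415 and 494 CPM in the CySC-like cells of the same libraries. For vas and bam the levels are those of reporter-positive cells, with the CySC-like cells taken from TrafficJam-Upd. There vas had 289 and 298 CPM in GSC-like and 27.3 and 42.3 CPM in CySC-like cells. bam had 61.9 and 114.6 CPM in GSC-like and 12.3 and 15.6 CPM in CySC-like cells. Values below are given in the order replicate 1, then replicate 2.

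H3-GFP was found mainly in the population of the driver in each tumor type. In Nanos-Upd tumors, 21.6% of GSC-like cells of replicate 1 were reporter-positive (exact 95% interval 20.0 to 23.3%) and 23.5% of replicate 2 (22.4 to 24.7%). Intervals here cover counting error only. The background was lower in both libraries: 1.49 and 3.20% of CySC-like cells of the same tumors had a reporter UMI, at median depths of 3323 and 3042 UMIs against 4802 and 3531 UMIs in the GSC-like cells. GSC-like cells of TrafficJam-Upd tumors had a reporter UMI in 1.34 and 1.67% of cells, at median depths of 5014 and 4081 UMIs. In those tumors the reporter was found mainly in CySC-like cells, at 26.2 and 19.7%. The smaller classes, of at most 249 cells in a library, had more uneven shares. In Nanos-Upd these were 2.81 and 2.83% of spermatocytes, 1.04 and 4.49% of somatic cells and 0 and 5.95% of muscle cells. In TrafficJam-Upd they were 1.06 and 2.29% of spermatocytes, 6.67 and 4.76% of somatic cells and 4.82 and 5.13% of muscle cells.

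The reporter was detected at few UMIs in each cell. GSC-like cells of Nanos-Upd held 695 and 1673 H3-GFP UMIs in all, which is 59.9 and 78.2 CPM. At least 2 UMIs were found in 132 and 277 cells, or 5.48 and 4.97%, and the largest number in 1 cell was 4 in replicate 1 and 5 in replicate 2. Just inside the threshold lay the 389 and 1034 cells with 1 UMI, and just outside it all cells with 0. With every cell thinned to 2200 UMIs, the expected positive share was 10.8 and 15.0%. The share of cells at 0 was 78.4 and 76.5%, whereas a single common reporter level with counting error alone would leave 75.2 and 74.4% at 0. A count of 0 therefore does not show that a cell lacked the reporter, and the comparisons below are between cells with and without a detected transcript.

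**Figure D1:**
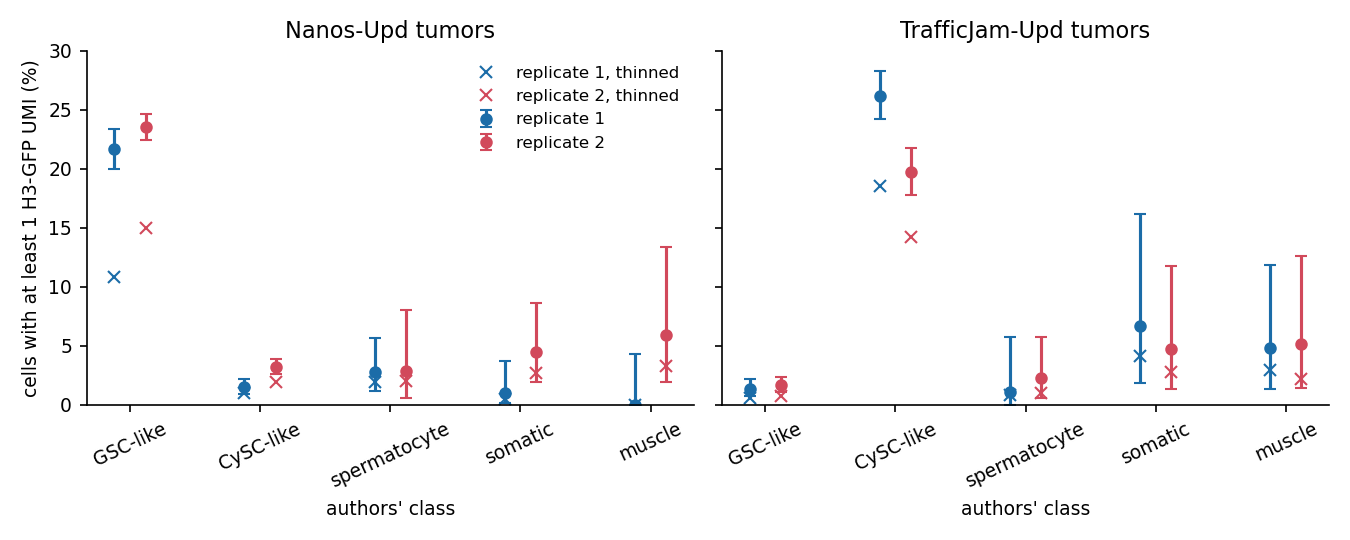
Share of cells with at least 1 H3-GFP UMI (%, vertical axis) by authors' class (horizontal axis) in Nanos-Upd (left) and TrafficJam-Upd (right) tumors, with exact 95% intervals for replicate 1 (blue) and replicate 2 (red) and crosses for the share expected after thinning to 2200 UMIs. GSC-like cells of Nanos-Upd reach 21.6 and 23.5%, whereas GSC-like cells of TrafficJam-Upd stay at 1.34 and 1.67%.

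Reporter-positive cells held more UMIs, with median depths of 5571 and 3934 UMIs, against 4562 and 3413 UMIs in all reporter-negative cells of the same libraries. Each positive cell was therefore paired with the unused negative cell of its library nearest in UMIs. After matching, medians were 5571 and 3934 UMIs in positive cells and 5572 and 3934 UMIs in negative cells. The matched groups were also close in other measures. Detected genes averaged 1913 and 1626 in positive cells and 1899 and 1616 in negative cells. The mitochondrial share averaged 5.25 and 5.96% in positive cells and 4.93 and 5.71% in negative cells, and the share of ribosomal transcripts 31.4 and 28.9% in positive cells and 31.7 and 29.6% in negative cells.

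UMIs were summed per library and reporter status, giving 4 sums, and tested with edgeR's quasi-likelihood test with the library as a block. The test rests on 2 libraries and 1 residual degree of freedom, and nothing in the labels says that they came from separate crosses. With the block, p-values rest on how far the difference by reporter status varied between these libraries. For most genes this spread was taken from all genes together and not from the gene alone (median prior degrees of freedom infinite). H3-GFP was left out because it chose the cells. Of 8531 genes tested, 134 (1.57%) passed a Benjamini-Hochberg adjusted p of 0.05, with 50 (0.586%) higher and 84 (0.985%) lower in reporter-positive cells. The sums of positive and negative cells did not overlap for 71 of the 134, against 19.2% of all genes tested. The direction was the same in both libraries for 48 of the 50 and 81 of the 84, against 55.5% of all genes tested.

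The largest decreases moved with a few cells that carried transcripts of another organ. Seminal fluid protein genes of the male accessory gland, which is a somatic gland of the reproductive tract, led them. Of 19 tested members of a list of 27 such genes, 17 were lower and 1 was higher. Over all genes tested, 0.985% were lower and 0.586% were higher. The list was put together after the data had been seen, so these counts are not separate support. Their summed level was 486 and 81.1 CPM in reporter-positive cells and 1543 and 477 CPM in the matched negative cells. A single negative cell held 76.3% of the negative cells' accessory gland UMIs in replicate 1, with 3346 such UMIs of 6447, and a single one held 81.6% in replicate 2, with 2141 of 5661. Among the matched cells, more than 1% of UMIs came from this list in 3 positive and 2 negative cells of replicate 1. In replicate 2 this held for 1 positive and 3 negative matched cells. Over all GSC-like cells, most of which are negative and were not drawn as matches, it held for 3 positive and 26 negative cells of replicate 1. It held for 1 positive and 9 negative cells of replicate 2, and for no GSC-like cell of TrafficJam-Upd.

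Leaving out these cells and matching again, an alternative added after the data had been seen, left 4 called genes of 8512 tested (0.047%), all of them lower in reporter-positive cells and all called before, while 653 genes had an unadjusted p under 0.05, against 857 with the cells in. The 4 are the heat shock RNA lncRNA:Hsromega, the gene fs(1)K10, the non-coding RNA lncRNA:CR43264 and the gene CG44774. They were also called, with mt:srRNA, when positive cells were limited to those with at least 2 reporter UMIs, and each was called in 10 of 11 alternatives, all but the fit without the library block. No gene was called higher in reporter-positive cells by edgeR without the accessory gland cells. The estimated prior degrees of freedom of the fit, which set how far a gene's spread is taken from all genes, were infinite with these cells and 8.42 without them.

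**Figure D2:**
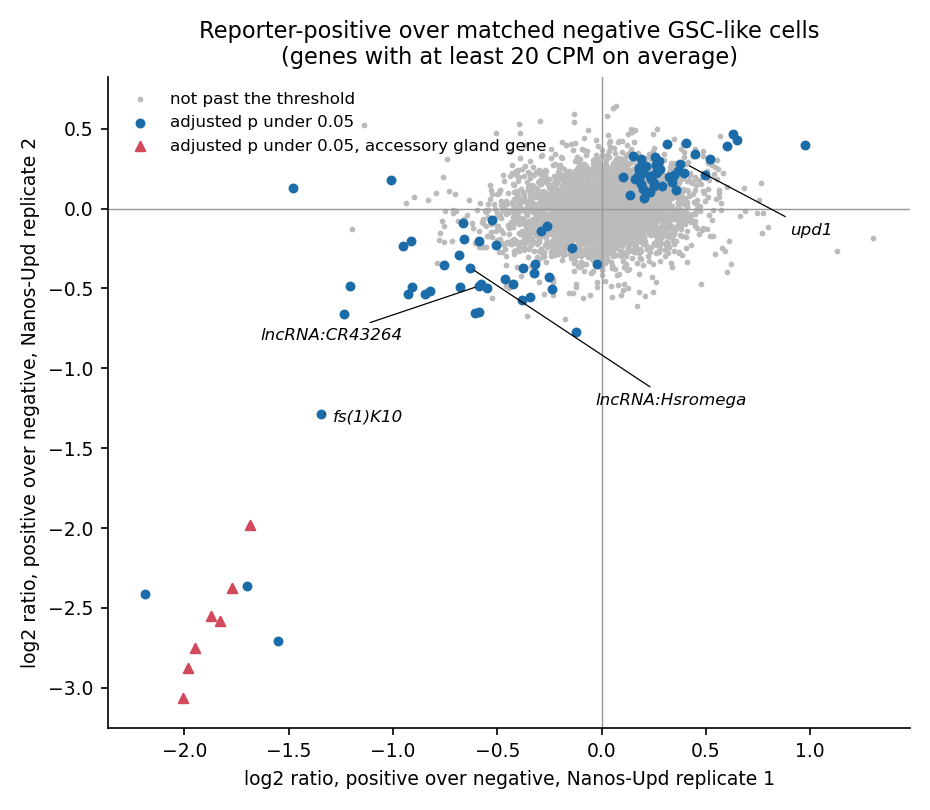
Log2 ratio of reporter-positive over matched reporter-negative GSC-like cells in Nanos-Upd replicate 1 (horizontal axis) and replicate 2 (vertical axis), with 1 point per gene that averaged 20 CPM or more. Accessory gland genes (red triangles) lie at the lower left beside CG43147, CG42852 and CG42481 (blue), fs(1)K10 is lower in both libraries by over 1 log2 unit, and the genes called higher (blue, upper right) lie close to the mass of genes that did not pass the threshold (grey).

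The transgene that shares the reporter's driver was measured through upd1, which encodes Unpaired (gene FBgn0004956, X:18305354-18309291, minus strand). Its level was 77.7 and 67.9 CPM in reporter-positive cells and 58.7 and 55.9 CPM in matched negative cells, from 221 and 373 UMIs in positive cells and 167 and 307 UMIs in negative cells. Both positive sums lay above both negative sums. The log2 fold change was 0.33 ± 0.10 (SE), a ratio of 1.32 in replicate 1 and 1.21 in replicate 2, and edgeR's adjusted p was 0.0563, which misses the threshold. The adjusted p ran from 0.00830 with 2 negative cells per positive cell to 0.99994 without the library block, and upd1 was called in 3 of 11 alternatives. With matching on detected genes in place of UMIs the log2 fold change was 0.21, with an adjusted p of 0.481. In that match replicate 1 had 77.7 CPM in positive cells and 73.4 CPM in negative cells, with upd1 in 22.8% of cells of both groups, and replicate 2 had 67.9 CPM in positive cells and 57.0 CPM in negative cells. Endogenous and transgenic upd1 cannot be told apart in these counts.

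Transcripts of upd1 were found in 22.8 and 19.1% of reporter-positive cells and 20.2 and 15.6% of matched negative cells. The background share was 1.249 and 3.17% in CySC-like cells of the same tumors and 0.894 and 2.06% in GSC-like cells of TrafficJam-Upd, at the depths given above. The negative cells thus held upd1 well above the background of either population. By number of reporter UMIs, upd1 stood at 60.01, 74.3, 90.0 and 80.8 CPM in cells with 0, 1, 2 and 3 or more UMIs in replicate 1, and at 55.4, 65.9, 72.1 and 80.4 CPM in replicate 2. These classes were not matched for depth, and the highest of them held 35 and 65 cells.

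The driver's own promoter source, nos (3R:19157238-19160202), had 210.3 and 226 CPM in reporter-positive cells and 177 and 198 CPM in negative cells. Its log2 fold change was 0.22 ± 0.07 with an edgeR adjusted p of 0.0736. The driver's transcript carries sequence of nos at its end, per its name in the labels, so its reads and those of the gene cannot be told apart here. By number of reporter UMIs, nos values are plotted with those of upd1.

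Among the 4 genes called with and without the accessory gland cells, the largest fold change was that of fs(1)K10 (FBgn0000810, X:2242138-2246041), known from oogenesis, where it is needed for dorsoventral patterning of the egg. It had 14.4 and 23.7 CPM in reporter-positive cells and 36.9 and 57.7 CPM in matched negative cells, with no overlap. The log2 fold change was -1.30 ± 0.14 with edgeR's adjusted p at 2.69e-18, and -1.31 with an adjusted p of 0.00564 without the accessory gland cells. Cells with 0, 1, 2 and 3 or more reporter UMIs had 41.3, 14.8, 13.1 and 14.3 CPM in replicate 1 and 53.2, 27.2, 11.7 and 12.4 CPM in replicate 2. The upper classes rest on few counts, with 7 and 11 UMIs of the gene at 2 reporter UMIs and 3 and 4 UMIs above that.

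Cells with an fs(1)K10 UMI made up 7.29 and 7.02% of reporter-positive cells and 13.6 and 13.4% of all reporter-negative cells. In GSC-like cells as a whole the gene had 34.7 and 45.6 CPM in Nanos-Upd and 11.1 and 8.05 CPM in TrafficJam-Upd. Among reporter-negative cells of Nanos-Upd, upd1 stood at 76.4 and 66.4 CPM in those with an fs(1)K10 UMI, at median depths of 5170 and 3966 UMIs, and at 57.1 and 53.4 CPM in those without, at 4476 and 3349 UMIs. Among reporter-positive cells it stood at 76.0 and 83.6 CPM in those with an fs(1)K10 UMI, from 16 and 36 UMIs of upd1, and at 77.8 and 66.5 CPM in those without. The end of this gene is also used as a terminator in UAS vectors made for the germline. The labels do not say whether these transgenes have it, in which case 3' reads from them and from the gene could not be told apart, and its part in the difference was not tested.

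lncRNA:Hsromega (3R:21296127-21317836), a nuclear RNA induced by heat shock, had 2405 and 2772 CPM in reporter-positive cells and 3720 and 3584 CPM in negative cells. Its log2 fold change was -0.49 ± 0.03, with edgeR's adjusted p at 2.90e-42, or 0.00941 without the accessory gland cells. In the classes with 0, 1, 2 and 3 or more reporter UMIs it stood at 4813, 2508, 2442 and 1287 CPM in replicate 1 and 3957, 2903, 2414 and 2092 CPM in replicate 2. Of 21 heat shock protein and chaperone genes tested, edgeR called none, with a median log2 fold change of -0.06 against 0.00 over all genes. The chaperone Hsp83 had 1535 and 1759.6 CPM in positive cells and 1427 and 1770.5 CPM in negative cells, and the cognate chaperone Hsc70-4 had 1255 and 1663 CPM in positive cells and 1278 and 1704 CPM in negative cells.

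lncRNA:CR43264 (X:5831898-5832215) had 2596 and 1746 CPM in reporter-positive cells and 3899 and 2443 CPM in negative cells, with a log2 fold change of -0.53 ± 0.04 and an edgeR adjusted p of 5.09e-47. It is a germline transcript in these data, at 3394 and 2094 CPM in GSC-like cells of Nanos-Upd, against 275 and 189.9 CPM in their CySC-like cells. CG44774 (X:4926664-4938105) had 493 and 738 CPM in positive cells and 614 and 936 CPM in negative cells, a log2 fold change of -0.33 ± 0.05 with an edgeR adjusted p of 2.82e-09. For both genes each library showed the decrease, while the levels of the 2 libraries differed enough for the groups to overlap. Without the accessory gland cells the adjusted p was 0.000197 for lncRNA:CR43264 and 0.0460 for CG44774.

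**Figure D3:**
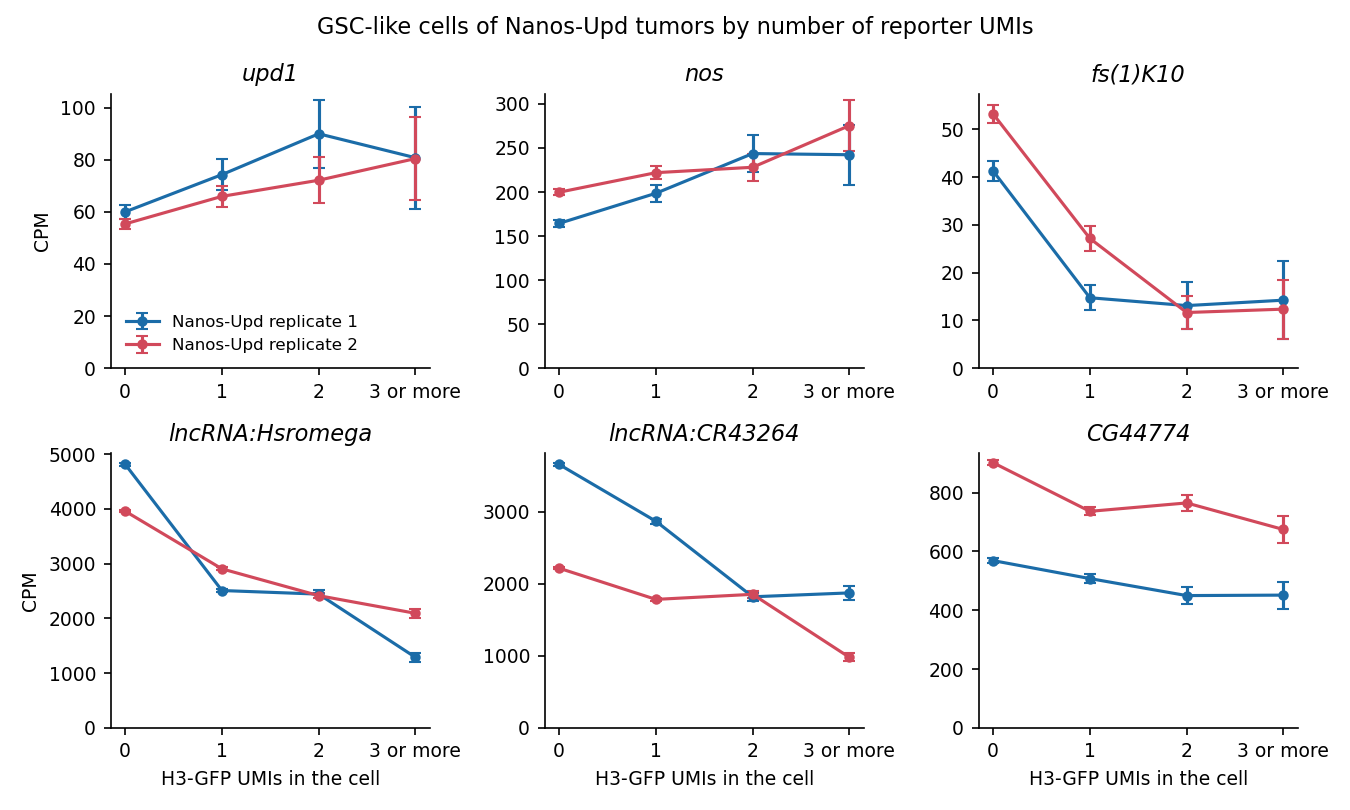
Level in CPM (vertical axes, from 0) of 6 genes in GSC-like cells of Nanos-Upd tumors by number of H3-GFP UMIs in the cell (horizontal axes), for replicate 1 (blue) and replicate 2 (red), with bars for 1 Poisson standard error of the count. fs(1)K10 stands at 41.3 and 53.2 CPM in cells with 0 reporter UMIs and at 13.1 and 11.7 CPM with 2, whereas upd1 stands at 60.01 and 55.4 CPM with 0 and 90.0 and 72.1 CPM with 2.

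A second split used upd1 in place of the reporter. It does not measure driver activity alone, since endogenous and transgenic upd1 cannot be told apart. Among reporter-negative GSC-like cells that had not been drawn as matches, cells with a upd1 UMI were compared with depth-matched cells without one, which was added after the data had been seen. Of 6886 genes, edgeR called 70 (1.02%), with 41 (0.595%) higher and 29 (0.421%) lower in upd1-positive cells. Of the 29, 16 were on the accessory gland list and 3 were CG43147, CG42852 and CG42481. Without the accessory gland cells it called 41 of 6848 (0.599%), with 37 (0.54%) higher and 4 (0.0584%) lower. CG44774 was lower in this split too, at 502 and 783 CPM in upd1-positive cells and 667 and 923 CPM in upd1-negative cells, a log2 fold change of -0.32 ± 0.06, or -0.33 without the accessory gland cells (adjusted p 4.50e-05). lncRNA:Hsromega was higher, with a log2 fold change of 0.52 ± 0.05, or 0.47 without those cells (adjusted p 2.85e-18), from 5949 and 5484 CPM in upd1-positive cells and 4372 and 3564 CPM in upd1-negative cells. The split gave log2 fold changes of -0.05 ± 0.05 for lncRNA:CR43264 and 0.21 ± 0.18 for fs(1)K10, neither of which was called with or without them.

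The genes called higher in reporter-positive cells had small differences. The 12 with the largest change at an average of at least 20 CPM and with the same direction in both libraries had log2 fold changes of 0.30 to 0.57. IA-2, a tyrosine phosphatase-like protein of secretory vesicles, had 101 and 112 CPM in positive cells and 64.0 and 82.8 CPM in negative cells (log2 fold change 0.51 ± 0.09). The transcription factor mamo, known for its role in the germline, had 308 and 423 CPM in positive cells and 237 and 348 CPM in negative cells (0.32 ± 0.06). The axon guidance gene Sema1a had a log2 fold change of 0.46, the adenylyl cyclase rut 0.38, the nuclear export factor family gene Nxf3 0.32, side-V 0.40, CG2321 0.52, CG42342 0.30 and lncRNA:CR32773 0.41. Without the accessory gland cells the 12 had log2 fold changes of 0.30 to 0.58 and adjusted p between 0.0821 and 0.414. With the second set of negative cells the log2 fold change was 0.26 for solo, 0.22 for rut and 0.19 for CG42342, none of them called, and with at least 2 reporter UMIs it was 0.15 for CG2321.

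For some of them a gene and another transcript share reads or a name. solo, at 29.2 and 36.2 CPM in positive cells and 14.8 and 27.5 CPM in negative cells (log2 fold change 0.57), lies within the locus of vas on 2L, and its counts are uncertain for that reason. vas itself, a germline RNA helicase, had 289 and 298 CPM in positive cells and 261 and 291 CPM in negative cells, with a log2 fold change of 0.08 ± 0.06 that was not called. w, at 66.1 and 70.2 CPM in positive cells and 53.1 and 52.96 CPM in negative cells (0.38 ± 0.10), encodes the eye colour transporter that marks P-element insertions such as the driver, so its counts join the transgene marker and the w[1118] locus. Among other genes with large decreases, the cystatin gene Cys had 15.1 and 11.5 CPM in positive cells and 35.9 and 18.2 CPM in negative cells (-0.93 ± 0.18, or -0.37 with at least 2 reporter UMIs), with an adjusted p of 0.240 without the accessory gland cells.

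The largest decreases by the same rule were those of Acp98AB, Sfp96F, Mst57Db, msopa, Mst57Da, SP and Acp95EF of the accessory gland list and of CG43147, CG42852 and CG42481, which are not on it, with log2 fold changes of -2.31 to -1.77. SP encodes the sex peptide, which changes the behaviour of mated females. Its level was 16.2 and 2.73 CPM in positive cells and 55.6 and 14.6 CPM in negative cells. In each of these 10 genes 1 cell held between 30.5 and 43.2% of the gene's UMIs. Without the accessory gland cells their log2 fold changes lay between -0.34 and -0.04 and none was called.

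In the JAK-STAT pathway, 1 of 13 genes tested was higher and 1 was lower, against 1.57% of all genes tested that were called in either direction, with a median log2 fold change of 0.07. Stat92E, the pathway's transcription factor, had 245 and 247 CPM in positive cells and 229 and 227 CPM in negative cells (log2 fold change 0.12 ± 0.07, not called). The feedback inhibitor Socs36E fell to 59.1 and 87.1 CPM in positive cells, against 89.0 and 100.5 CPM in negative cells, a log2 fold change of -0.33 ± 0.09 with an edgeR adjusted p of 0.0216. The phosphatase Ptp61F, a negative regulator of the pathway, rose to 684 and 918 CPM in positive cells, against 570.5 and 758 CPM in negative cells (0.27 ± 0.05, adjusted p 1.32e-06). Socs36E was called in 4 of 11 alternatives. Without cells that carried at least 2 cyst lineage markers its log2 fold change was -0.14, with an adjusted p of 0.810, and in reporter-positive CySC-like cells of TrafficJam-Upd it stood at 1232 and 1082 CPM. It was -0.22 with at least 2 reporter UMIs, -0.59 in replicate 1 and -0.20 in replicate 2. For Ptp61F it was 0.18 with matching on detected genes. Without the accessory gland cells the adjusted p of Socs36E was 0.462 and that of Ptp61F 0.0752. chinmo, a stem cell factor downstream of the pathway, had 688 and 854 CPM in positive cells and 672 and 757 CPM in negative cells, a log2 fold change of 0.12 ± 0.05 that was not called.

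Among early germline genes, 1 of 12 tested was higher, against 0.586% of all genes tested, with a median log2 fold change of 0.13. It was piwi, the nuclear effector of piRNA silencing, at 369 and 416 CPM in positive cells and 308 and 356 CPM in negative cells (0.25 ± 0.06, or 0.15 and not called with the second set of negative cells). In the longer list of piRNA and transposon silencing genes, 2 of 25 were higher, against the same 0.586%, piwi and the piRNA factor qin (0.20 ± 0.05), and the median was 0.10. bam, which starts differentiation, had 61.9 and 114.6 CPM in positive cells and 70.7 and 112 CPM in negative cells, a log2 fold change of -0.03 ± 0.09. Of 13 germline differentiation genes, 1 was higher (against 0.586% of all genes), the RNA-binding protein gene Rbp9 (0.27 ± 0.07), and none was lower. BMP signalling, the other niche signal to the germline, had none of 13 genes called by edgeR, and its transcription factors Mad and shn had log2 fold changes of -0.03 and -0.01.

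Cell cycle genes had small log2 fold changes. Of 21 mitosis genes, 20 had a positive log2 fold change, against 50% of all genes tested, with a median of 0.08, and 1 was called (against 1.57% of all genes), the Cdc25 phosphatase stg at 309 and 227 CPM in positive cells and 269 and 189 CPM in negative cells. stg was also the 1 gene called among 14 of G1 to S control, against the same 1.57%. DNA replication genes had none of 39 called, with a median of 0.08. The replication clamp PCNA had 357 and 366 CPM in positive cells and 359 and 333 CPM in negative cells, and the clamp loader subunit RfC4 had 205 and 191 CPM in positive cells and 207 and 188 CPM in negative cells. Histone genes had none of 15 called, with log2 fold changes of 0.01 for His4r and 0.03 for His3.3B.

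Of 14 glycolysis genes, 1 was higher (against 0.586% of all genes), the enolase gene Eno, at 436 and 303 CPM in positive cells and 365 and 242 CPM in negative cells, a log2 fold change of 0.30 ± 0.06 with an edgeR adjusted p of 7.40e-05. It was called in 7 of 11 alternatives, and had an adjusted p of 0.114 without the accessory gland cells. The list's median was -0.11, and 12 of the 14 had a negative log2 fold change without being called. From the mitochondrial genome, 2 of 15 genes were higher, against 0.586% of all genes tested, the ribosomal RNAs mt:srRNA (0.20 ± 0.03) and mt:lrRNA (0.12 ± 0.03). mt:srRNA had 5092 and 5693 CPM in positive cells and 4283 and 5153 CPM in negative cells, and was called in 9 of 11 alternatives, with an adjusted p of 0.0752 without the accessory gland cells.

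Of 12 apoptosis genes, 1 was higher (against 0.586% of all genes), Drep2 of the DNA fragmentation factor family (0.29 ± 0.08, or 0.18 with at least 2 reporter UMIs), and the list's median was -0.13. Among 8 dosage compensation genes, 1 was lower (against 0.985% of all genes), lncRNA:roX2, an RNA of the complex that acts on the male X. It had 15.5 and 52.2 CPM in positive cells and 19.7 and 76.8 CPM in negative cells (-0.52 ± 0.12, or -0.24 and not called with at least 2 reporter UMIs). In CySC-like cells of TrafficJam-Upd it was far more abundant, at 1236 and 1001 CPM in reporter-positive and 1045 and 960 CPM in negative cells. There its log2 fold change was 0.19 ± 0.05 (edgeR adjusted p 0.0119). The part of cyst cell RNA in its decrease was not tested. Of 90 cytosolic ribosomal protein genes edgeR called none, with a median of -0.02, and the abundant RpL41 and RpL36A had log2 fold changes of 0.01 and 0.00. Small decreases prevailed in this list, with a positive log2 fold change in 24 of the 90, against 50% of all genes tested. In both libraries 54 were lower, against 30% of all genes, and 5 were higher, against 25.5%. In every list named here, no gene was called once the accessory gland cells had been left out. The log2 fold changes of the genes called in these lists, other than accessory gland genes, nevertheless stayed close. With and without those cells they were 0.245 and 0.243 for piwi, 0.275 and 0.272 for Ptp61F and 0.201 and 0.202 for mt:srRNA.

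**Figure D4:**
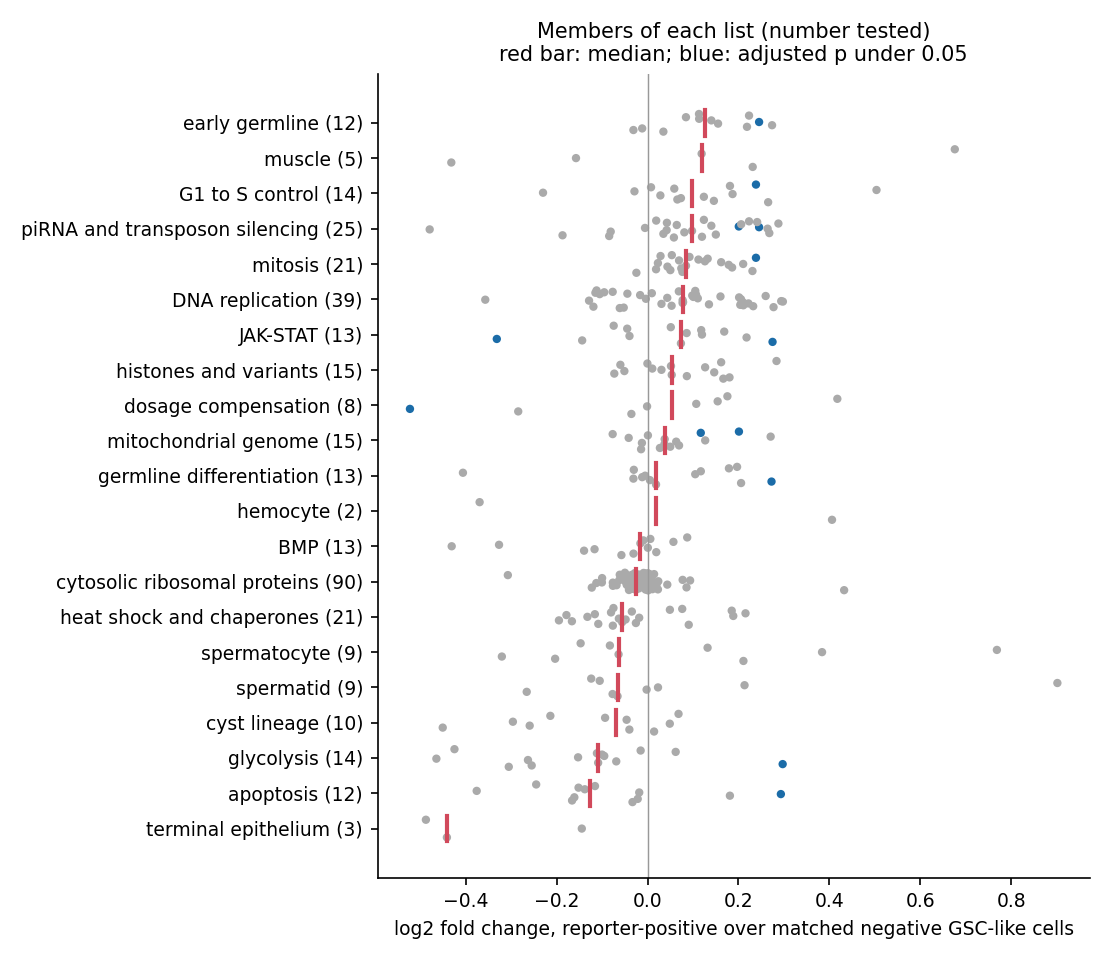
Log2 fold change of reporter-positive over matched reporter-negative GSC-like cells (horizontal axis) for the tested members of 21 gene lists (rows, with the number tested), with 1 point per gene and a red bar at each list's median. Nearly all members lie within 0.5 log2 units of 0, the members called by edgeR are blue, and the medians run from -0.44 in 3 terminal epithelium genes to 0.13 in early germline genes.

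Markers of other cell types were also compared, since GSC-like cells may carry RNA of their neighbours. Cyst lineage markers summed to 182 and 364 CPM in reporter-positive cells and 178 and 389.6 CPM in negative cells, with none of 10 called. The cyst cell transcription factors tj and zfh1 had log2 fold changes of -0.21 ± 0.16 and 0.07 ± 0.08, and the adhesion gene CadN -0.04. Spermatocyte markers summed to 132 and 108 CPM in positive cells and 117 and 98.8 CPM in negative cells, with none of 9 called and log2 fold changes of 0.38 for the Y-linked dynein gene kl-3 and 0.13 for mia. Spermatid markers summed to 467 and 249 CPM in positive cells and 486 and 259 CPM in negative cells, with -0.08 for Mst87F and 0.02 for dj. Terminal epithelium markers summed to 463 and 666 CPM in positive cells and 533 and 726 CPM in negative cells, mostly of the metallothionein MtnA (-0.14), beside Fas3 (-0.44). Muscle and hemocyte markers summed to at most 30.2 CPM in any group, with Mlc2 at -0.16, Mhc at -0.43, Col4a1 at 0.41 and vkg at -0.37, none of them called. The part of these cell types in the differences was not tested.

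The same split was made in the population that expresses the reporter in TrafficJam-Upd tumors, its CySC-like cells, to see whether a difference by reporter status was shared. Of 8056 genes tested for the interaction on 8 sums, edgeR called 104 (1.29%), with the difference more positive in GSC-like cells for 27 (0.335%) and more negative for 77 (0.956%). Population, driver and fly line go together here and cannot be told apart. The count rested on single libraries: it was 33 when Nanos-Upd replicate 1 was left out, 78 when Nanos-Upd replicate 2 was, 3 when TrafficJam-Upd replicate 1 was and 3 when TrafficJam-Upd replicate 2 was.

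The 4 genes called with and without the accessory gland cells were all called for the interaction. They had been chosen by their difference in the same GSC-like sums, so these calls are not separate support for that difference. fs(1)K10 had an interaction of -1.41 ± 0.32 (log2, adjusted p 0.00213), with 18.2 and 19.3 CPM in reporter-positive CySC-like cells and 16.6 and 19.3 CPM in their matched negative cells. The interaction was -0.63 ± 0.07 for lncRNA:CR43264, -0.44 ± 0.05 for lncRNA:Hsromega and -0.48 ± 0.11 for CG44774. In CySC-like cells lncRNA:Hsromega had 2373 and 1676 CPM in positive cells and 2586 and 1701 CPM in negative cells, a log2 fold change of -0.06 ± 0.04 that was not called. Socs36E also differed, with an interaction of -0.48 ± 0.10 and levels of 1232 and 1082 CPM in positive CySC-like cells and 1139 and 997 CPM in negative ones.

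The interaction for upd1 was 0.18 ± 0.18 with an adjusted p of 0.801. In CySC-like cells upd1 had 88.4 and 66.2 CPM in reporter-positive cells and 76.2 and 69.0 CPM in negative cells, a log2 fold change of 0.14 ± 0.15 in which the libraries went in opposite directions. In that population edgeR called 80 of 6540 genes (1.22%), 47 (0.719%) higher and 33 (0.505%) lower. A difference between the populations in upd1 was not detected here.

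**Figure D5:**
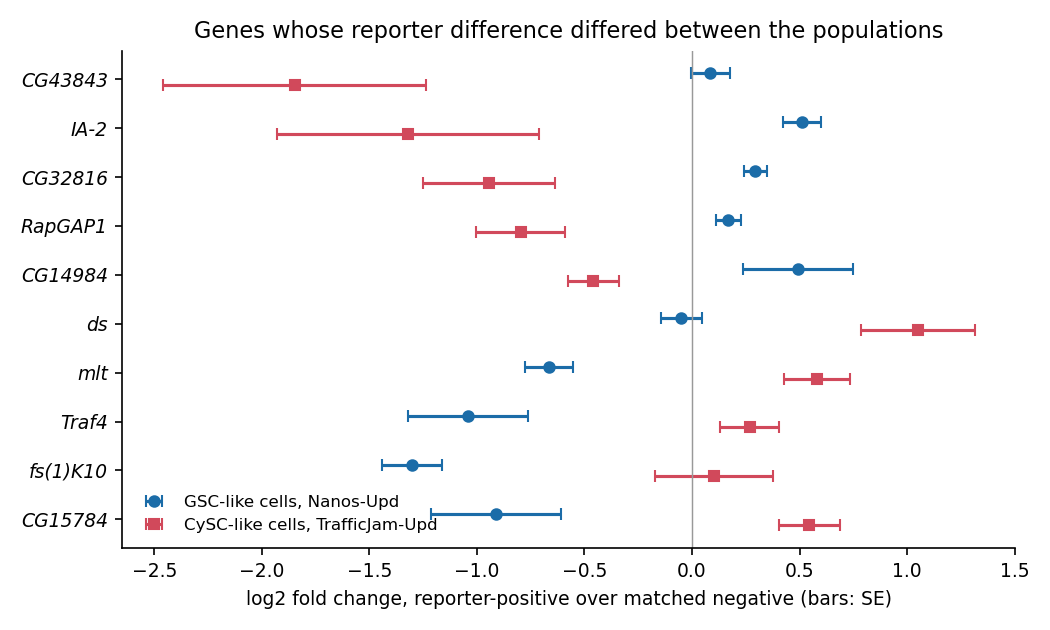
Log2 fold change of reporter-positive over matched reporter-negative cells (horizontal axis, bars 1 SE) in GSC-like cells of Nanos-Upd (blue circles) and CySC-like cells of TrafficJam-Upd (red squares) for the 10 genes with the largest called interaction (rows). fs(1)K10 stands at -1.30 among GSC-like and 0.10 among CySC-like cells, and CG43843 at 0.09 among GSC-like and -1.85 among CySC-like cells. CG43843 had at most 10.2 CPM and IA-2 at most 9.66 CPM in any CySC-like sum. In any GSC-like sum Traf4 had at most 11.6, CG15784 at most 9.14 and CG14984 at most 13.1 CPM.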

How the data were processed

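Single-cell libraries were made from dissociated testis tumors with a 10x Genomics 3' kit, per the labels' protocols. Cell Ranger 7.0.0, Seurat 5.0.3 and the build dm6 are named in the submitters' processing notes. The authors deposited raw UMI counts for 17558 features, which summed to the deposited total in 20618 of 20618 cells, and a table with each cell's library and class and the percent of mitochondrial and ribosomal UMIs. It also holds the authors' embedding scores per cell, which were not used. Doublet treatment is not given in the sources used here and no caller was run. Instead, cells with UMIs of at least 2 markers of the other lineage were left out in an alternative.

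Members and lists were chosen with earlier results of these data known. Both sums of a library come from the same dissociated testes, so the library (the replicate number) is a block. Matching took positive cells from the deepest down and left a largest gap of 25 and 37 UMIs between paired ranks. Counts were tested with edgeR 4.0.16 in R 4.3.3 (TMM, filterByExpr, robust quasi-likelihood), H3-GFP left out, with Benjamini-Hochberg adjusted p under 0.05. Errors are SE from the F statistic. The estimated prior degrees of freedom were infinite in the main fit and 8.42 without accessory gland cells. Scripts were tested on simulated data. Alternatives used DESeq2 1.42.0, other normalization, filters, matching and thresholds, and omitted libraries. Those without accessory gland cells (over 1% of UMIs from 27 genes), with a second set of negative cells and the split by upd1 (with and without accessory gland cells) were chosen after seeing the data.

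Named genes are 10 always reported (upd1, nos, vas, bam, chinmo, zfh1, tj, Stat92E, Socs36E, Eno), the 12 largest called per direction (20 CPM or more, both libraries going one way), up to 3 called per list and direction or else its 2 highest, and 5 per direction of the interaction. lncRNA:Hsromega, lncRNA:CR43264 and CG44774 were named after their values were seen. Gene positions were taken from the Ensembl 115 annotation of BDGP6.54, which held 17515 of the features. Counts were computed with Python 3.11.15.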

Additional observations from a re-analysis of the deposited data

Results flagged for a closer look

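For 10 genes the difference by reporter status was tested to differ between GSC-like cells of Nanos-Upd and CySC-like cells of TrafficJam-Upd, as the edgeR interaction on a log2 scale with adjusted p under 0.05. They are the largest called at an average of at least 20 CPM. That average covers both populations, so some genes were low in 1 of them. In CySC-like cells IA-2 had 1.61 and 6.44 CPM in reporter-positive sums and 9.66 and 7.36 CPM in negative sums. In GSC-like cells the positive and negative sums were 3.87 and 5.82 against 11.6 and 10.0 CPM for Traf4. They were 4.92 and 4.18 against 9.14 and 8.01 CPM for CG15784, and 6.68 and 13.1 against 4.22 and 9.64 CPM for CG14984. The interaction was 1.95 for CG43843, 1.85 for IA-2, 1.23 for CG32816, 0.96 for RapGAP1 and 0.94 for CG14984. It was -1.46 for CG15784, -1.41 for fs(1)K10, -1.30 for Traf4, -1.26 for mlt and -1.11 for ds, which encodes the cadherin Dachsous. RapGAP1 changed direction with a second set of negative cells, at -0.41. CG43843 had 67.2 and 98.1 CPM in reporter-positive GSC-like cells and 65.4 and 91.4 CPM in negative ones, and 2.14 and 3.68 CPM in positive CySC-like cells and 10.2 and 10.1 CPM in negative ones. ds had 29.5 and 26.7 CPM in positive CySC-like cells and 12.9 and 15.6 CPM in negative ones. mlt, at 52.4 and 30.4 CPM in positive GSC-like cells and 92.8 and 43.5 CPM in negative ones, was called in both populations with opposite directions.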

How the results depend on the processing

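The count of 134 genes by reporter status was 64 with RLE size factors, 22 with DESeq2, 210 with 2 negative cells per positive, 89 with matching on detected genes, 73 without mixed cells, 5 with at least 2 reporter UMIs and 4 without accessory gland cells. Without the replicate block it was 0 in edgeR, with 47 genes at an unadjusted p under 0.05. It was 149 with no filter on low counts, 194 with all negatives unmatched and 138 with a second set of negatives, of which 77 were called in both. upd1 kept its direction in the 11 alternatives and both libraries, at a log2 fold change of 0.28 to 0.40 with 1 library left out and 0.21 (adjusted p 0.481) with matching on detected genes. It was not called in 8 of the 11, and passed the threshold with unmatched negatives (0.34, adjusted p 0.0229), 2 negatives (0.35, 0.00830) and the second set (0.37, 0.0378), its adjusted p in edgeR and DESeq2 reaching 0.99994. The interaction count of 104 was 163 with unmatched negatives, 163 with 2 negatives, 63 without mixed cells, 17 with DESeq2, 0 without the replicate block (140 at an unadjusted p under 0.05) and 3 to 78 with 1 library left out. The mean positive share of 22.6% was 5.23% at 2 or more UMIs, 12.9% after thinning and 21.6 to 23.5% with 1 library left out.

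Log2 fold changes of named genes that changed sign were as follows, and the cause was not tested. With matching on detected genes, bam was 0.0156, Mst57Db 0.069, msopa 0.11, Mst57Da 0.12, CG42481 0.075, Acp95EF 0.12, dj -0.17, Mlc2 0.14, Mad 0.00310 and Hsc70-4 0.0123. With at least 2 reporter UMIs, tj was 0.22, SP 0.075, CadN 0.33, Mad 0.13, PCNA -0.13, RfC4 -0.035, His4r -0.043, Hsc70-4 0.00143, RpL41 -0.059 and RpL36A -0.025. Without mixed cells, CadN was 0.075, dj -0.013, RpL41 -0.00503 and RpL36A -0.00851, and without accessory gland cells RpL36A was -0.000804. With the second set, zfh1 was -0.00676, dj -0.23, Mlc2 0.00973, Mad 0.043 and the RapGAP1 interaction -0.41. With unmatched negatives dj was -0.20 and Hsc70-4 0.00607, and with 2 negatives dj was -0.11 and Mad 0.00345. Depth limits the classes with 3 or more reporter UMIs, where fs(1)K10 had 3 and 4 UMIs.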
